A study of Mus musculus with 3 samples.

Results

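Wing cells are the middle layers of the corneal epithelium, and here they were 111 cell barcodes of a droplet RNA library from an uninjured mouse cornea and limbus. They were chosen by a count rule and not by clustering. A barcode needed at least 5000 UMIs (counted RNA molecules), at most 20% mitochondrial UMIs, and at least 100 UMIs of the epithelial keratins Krt5 and Krt12 together per 10000. It could have at most 1 of the 5 basal genes Trp63, Col17a1, Itga6, Itgb4 and Krt14 at 2 or more UMIs, at most 3 of the 7 surface genes Psca, Muc4, Asprv1, Hopx, Nccrp1, Ly6g6c and Cysrt1 with a UMI, at most 1 UMI of the limbal gene Gpha2, and at most 2 of 7 cell division genes with a UMI. The 111 wing barcodes were 1.31% (95% interval 1.08 to 1.58) of the 8447 uninjured barcodes that passed the depth, mitochondrial and keratin limits. The uninjured library held 13270 barcodes and the whole series 25971.

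The study compared wild-type (wt) mouse eyes injured with nitrogen mustard (NM) and given losartan, eyes injured with NM and given saline, and uninjured eyes, with 1 library from 1 mouse in each group. Most of the conjunctiva had been cut away before liberase and trypsin freed the cells. The labels used here state no time after injury, losartan dose, strain or age. The libraries held 92753670 UMIs (losartan), 83155441 UMIs (saline) and 177003042 UMIs (uninjured). All wing cells came from 1 mouse, so barcodes are not replicates, no value below has a test, and all intervals are 95% intervals for counting error only. Between the uninjured library and the losartan library 28 barcode sequences were shared, 1 of them in a wing cell, and between the uninjured and saline libraries 21 were shared, none in a wing cell.

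In the corneal epithelium, basal cells sit on the basement membrane through hemidesmosomes and divide. Their daughters move up as wing cells, which are joined to each other by many desmosomes and gap junctions, and end as flat superficial cells that carry surface mucins and tight junctions and are shed. Wing cells are known for strong keratin 12, and the whole epithelium for very abundant metabolic enzymes called corneal crystallins.

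Wing barcodes were set against 2 neighbour classes cut from the same library. The 4519 basal barcodes had at least 2 of the 5 basal genes and at most 3 surface genes, and the 471 superficial barcodes had at most 1 basal gene and at least 4 surface genes. The same limits for Gpha2 and cell division genes held in both. A further 1125 barcodes had both sets of genes and belonged to none of these classes. UMIs were summed over the barcodes of a class and are given as CPM, counts scaled so that each class has the same total.

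Of the 4 genes that mark the label, which all lay above stromal levels in wing cells, Gsta2 was higher in wing cells than in both neighbours, Krt12 and Dapl1 were above basal cells by less, and Aldh3a1 was below them. Krt12, the keratin specific to the cornea, had 43936 CPM (43550 to 44325) in wing cells, 28980 CPM in basal cells and 40791 CPM in superficial cells. Krt12 was also part of the rule, so its level is a description. Gsta2, an alpha-class glutathione transferase, had 497 CPM (457 to 540) in wing cells, 163 CPM (159.9 to 166) in basal cells and 142 CPM (135 to 150.4) in superficial cells. That was 3.05 times (2.80 to 3.32) the basal level and 3.49 times (3.16 to 3.86) the superficial level. Reads of Gsta2 may be divided with near-identical family members.

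Dapl1, a gene of early epithelial differentiation, had 2499 CPM (2407 to 2593) in wing cells, 2077 CPM in basal cells and 819 CPM in superficial cells, 1.20 times (1.16 to 1.25) the basal level. Aldh3a1, the aldehyde dehydrogenase that is the main crystallin of the mouse cornea, had 7870 CPM in wing cells, 13735 CPM in basal cells and 5310 CPM in superficial cells. It was 1.75-fold lower (1.71 to 1.78) than in basal cells, so this marker goes against the label where wing and basal cells are compared. Thinned to 5000 UMIs per barcode, 82.9% of wing barcodes had a Gsta2 UMI, against 39.3% of basal, 43.5% of superficial and 3.01% of stromal barcodes, which should lack it. The same shares without thinning were 87.4%, 60.3%, 73.5% and 4.92%.

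**Figure D1:**
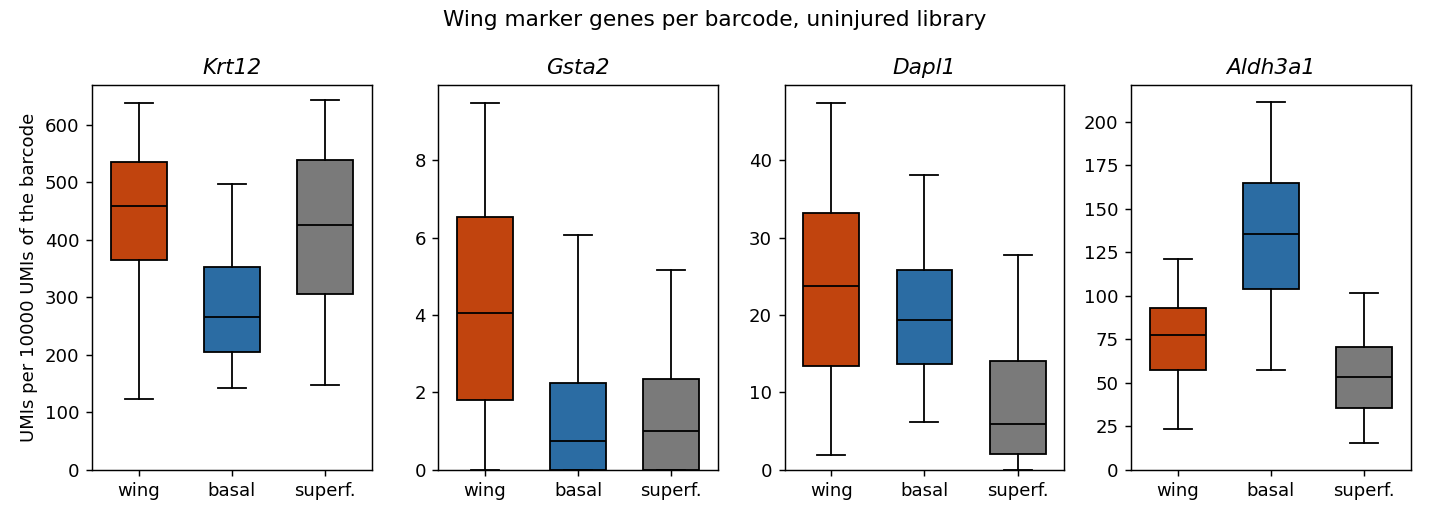
UMIs per 10000 of each barcode for the 4 wing marker genes in 111 wing, 4519 basal and 471 superficial (superf.) barcodes of the uninjured library; boxes are the middle 50% of barcodes with the median as a line, and whiskers run from the 5th to the 95th percentile. The Gsta2 box of wing barcodes (1.80 to 6.53, median 4.06) sits above the medians of basal (0.751) and superficial (1.01) barcodes, and the Aldh3a1 box sits below the basal one.

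The upstream sequences of the marker genes are shown because these genes mark the cell type. The 250 bases before the RefSeq start are given for the 3 of 4 markers that the RefSeq table (GRCm38.p6) held, 5′ to 3′ on the gene's strand. Aldh3a1 is named only. Capitals mark matches to TATAAA and CACCC on either strand, which do not overlap here. CACCC is the core of sites bound by Krüppel-like factors.
Krt12 (chr11:99422260-99422509, minus strand): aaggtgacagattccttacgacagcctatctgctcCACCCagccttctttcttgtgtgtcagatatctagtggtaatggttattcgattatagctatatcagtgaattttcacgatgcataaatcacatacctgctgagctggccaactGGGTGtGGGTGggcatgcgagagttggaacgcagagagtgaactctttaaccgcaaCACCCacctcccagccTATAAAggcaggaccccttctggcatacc
Gsta2 (chr9:78347146-78347395, minus strand): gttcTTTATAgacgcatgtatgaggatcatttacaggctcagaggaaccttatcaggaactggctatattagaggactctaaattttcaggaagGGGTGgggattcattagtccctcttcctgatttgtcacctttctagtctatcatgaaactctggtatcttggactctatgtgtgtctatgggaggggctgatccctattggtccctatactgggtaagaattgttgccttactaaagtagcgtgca
Dapl1 (chr2:59484403-59484652, plus strand): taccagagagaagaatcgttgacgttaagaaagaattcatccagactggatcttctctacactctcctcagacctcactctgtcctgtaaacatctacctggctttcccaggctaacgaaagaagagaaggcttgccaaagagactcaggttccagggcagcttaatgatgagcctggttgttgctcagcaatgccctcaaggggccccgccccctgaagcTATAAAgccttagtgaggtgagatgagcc

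TATAAA began 29 bases before the start in Krt12 and in Dapl1, and 246 bases before it in Gsta2, there as a match on the other strand. CACCC matched 4 times in Krt12, 1 time in Gsta2 and 0 times in Dapl1. Of all 32851 mouse promoters of this length, 12.4% held TATAAA and 52.0% held CACCC. Neither TGANTCA nor GCCNNNGGC, forms of the AP-1 and AP-2 sites held by 6.75% and 13.7% of promoters, was found in these 3 windows. In the GENCODE vM21 annotation of the same build, Krt12 lies on chromosome 11 from 99415666 to 99422259, Aldh3a1 on chromosome 11 from 61207537 to 61218421 and Dapl1 on chromosome 2 from 59484653 to 59505020. Gsta2 lies on chromosome 9 from 78331018 to 78355788 there and extends beyond the RefSeq start used here.

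Most wing barcodes lay at the edge of the rule. A basal gene at 2 or more UMIs was present in 95 of 111 (Col17a1 in 77, Trp63 and Itga6 in 7 each, Krt14 in 4 and Itgb4 in 0), and 16 had none. Surface genes numbered 3 in 45 barcodes, 2 in 37, 1 in 23 and 0 in 6, most often the homeobox gene Hopx (72 barcodes), Ly6g6c (54) and the membrane mucin Muc4 (47). Just outside the rule, 408 barcodes had 2 basal genes with 3 or fewer surface genes, and 40 had 4 surface genes with 1 basal gene or none. Gsta2 had 509.6 CPM in the 95 wing barcodes with 1 basal gene and 411 CPM in the 408 outside. Aldh3a1 had 8071 CPM in these wing barcodes and 9620.2 CPM in those outside.

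**Figure D2:**
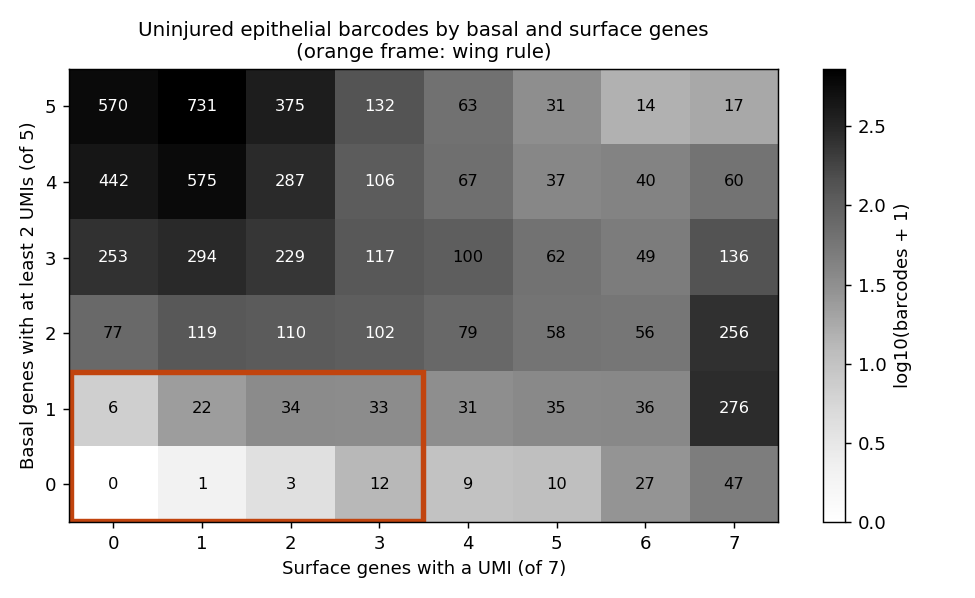
Number of uninjured epithelial barcodes (with Gpha2 and cell division limits met) by the number of surface genes with a UMI (x axis) and of basal genes at 2 or more UMIs (y axis); the grey scale is log10(barcodes + 1) and the orange frame is the wing rule. The frame holds 111 barcodes, 45 of them in its last column and 16 in its lowest row, and no gap separates it from its neighbours.

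Wing barcodes were shallow. Their median depth was 7990 UMIs (5001 to 22450), against 13866 UMIs in basal and 19552 UMIs in superficial barcodes. They had a median of 2926 genes, against 3785 in basal and 3666 in superficial barcodes. Their median mitochondrial share was 2.21%, against 1.45% in basal and 0.877% in superficial barcodes. Thinned to 5000 UMIs each, median gene numbers were 2060 in wing, 2089 in basal and 1720 in superficial barcodes.

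The rule counts genes with UMIs, and at equal depth it took in more cells. When every barcode was thinned to 5000 UMIs before the rule was applied, 760 barcodes were wing (9.0%), among them all 111, with 371 that were basal at full depth and 185 that had held both basal and surface genes. Their median full depth was 15871 UMIs. In these 760 barcodes Gsta2 had 421 CPM (410.4 to 432), Krt12 43054 CPM, Dapl1 2579 CPM and Aldh3a1 9737 CPM. The basal class under the same thinning had 161 CPM of Gsta2, 28095 CPM of Krt12, 2019 CPM of Dapl1 and 13576 CPM of Aldh3a1. Each marker stood on the same side of basal cells in both selections, while the share of wing cells was 9.0% after thinning and 1.31% at full depth.

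Against basal cells, 286 of 6433 genes with 20 CPM or more in either class were at least 2-fold higher in wing cells (4.45%) and 354 were at least 2-fold lower (5.5%), on the log2(CPM + 5) scale with the genes of the rule left out. The median log2 ratio of all genes was −0.01. A gene below 20 CPM in wing cells entered only through the neighbour class and could not be counted as higher in wing cells. The reverse held for a gene below 20 CPM in the neighbour class. Against superficial cells 1229 of 6080 genes were higher in wing cells (20.2%) and 378 lower (6.22%), with a median of 0.49. That comparison depends on scaling. With median-of-ratios scaling 462 genes were higher and 649 lower, and with superficial barcodes weighted to the depths of wing barcodes 505 were higher and 335 lower. With the rule applied after thinning 560 were higher and 290 lower. Ratios to superficial cells are therefore read beside 0.49. Counts of list members are read beside the share of all genes in the same comparison. Against basal cells with the rule applied after thinning, these shares were 2.60% higher and 3.77% lower of 6157 genes.

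Most genes that differed between basal and superficial cells had a wing level between both. The rule cut the classes by basal and surface genes, and these genes were picked from the same class sums. A position in between was thus partly built in, so it is a description and gives no evidence of a separate layer. Of 250 genes at least 4-fold higher in superficial than in basal cells, 211 had a wing level between both, and the median wing position was 0.33 on a log2 scale where basal is 0 and superficial is 1. Of 445 genes at least 4-fold lower in superficial cells, 429 were between, with a median position of 0.43. Among 5859 genes measured in both comparisons, 68 were 2-fold higher than basal and 2-fold lower than superficial, and 85 were the reverse. By the same limits 44 were higher than both neighbours and 13 lower than both.

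**Figure D3:**
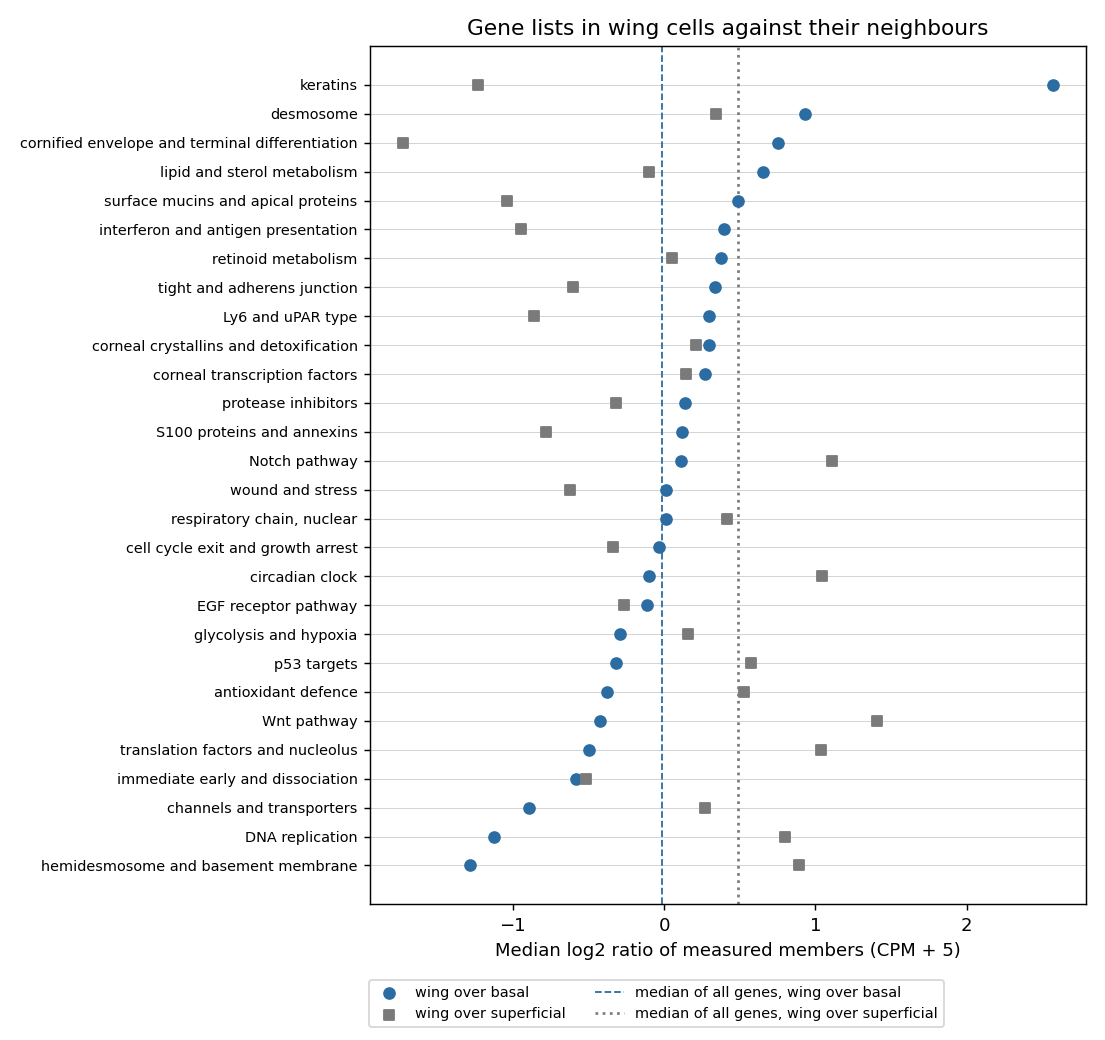
Median log2 ratio (CPM + 5) of the measured genes of each list in wing cells over basal cells (blue circles) and over superficial cells (grey squares), for lists with at least 5 measured genes in both; broken lines are the medians of all genes (−0.01 and 0.49). Keratins (2.57) and desmosome genes (0.93) lie farthest right over basal cells, and hemidesmosome genes (−1.28) and DNA replication genes (−1.12) farthest left.

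Keratins, the filament proteins of epithelia, formed the list farthest above basal cells. Of 10 measured, 9 were at least 2-fold higher and 0 lower, with a median log2 ratio of 2.57, beside 4.45% of all genes higher. Without 28 Krt15-rich barcodes described further on, 4 of 7 measured were higher and 1 lower, with a median of 1.28. Krt6a, a keratin of activated and upper epithelial layers, had 2728 CPM (2632 to 2826) in wing cells, 455 CPM in basal cells and 6055 CPM in superficial cells. It was 6.0-fold above basal and 2.22-fold below superficial cells, and 91.0% of thinned wing barcodes had a UMI, against 45.4% of basal, 100% of superficial and 22.1% of stromal barcodes (94.6%, 63.9%, 100% and 36.9% without thinning). Krt6b had 784 CPM in wing cells, 128 CPM in basal cells and 7952 CPM in superficial cells. Krt80, a keratin associated with desmosomes, had 65.7 CPM in wing cells, 7.58 CPM in basal cells and 383 CPM in superficial cells. For all 3 the wing level stood between the basal and the superficial level.

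Krt10, the keratin of suprabasal skin, had 56.8 CPM in wing cells, 21.1 CPM in basal cells and 28.1 CPM in superficial cells. Krt16 had 255 CPM in wing cells, 320.0 CPM in basal cells and 639 CPM in superficial cells. Against superficial cells 2 of 12 keratins were at least 2-fold higher in wing cells and 7 lower, with a median of −1.23. The shares of all genes were 20.2% higher and 6.22% lower. The 2 higher keratins were Krt4 and Krt17, whose wing UMIs lay almost all in the Krt15-rich barcodes, and not Krt10. Without the 28 Krt15-rich barcodes 0 of 11 keratins were higher than superficial and 10 lower, with a median of −2.74. The share of all genes lower was 7.08% in that set. Only 7 keratins were measured against basal cells there, so some of the 11 lay below the CPM limit in wing cells. These entered through superficial cells alone and could not be counted as higher. Krt78, a keratin of the outermost layers, had 2.66 CPM in wing cells and 130.1 CPM in superficial cells.

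The highest keratin ratios over basal cells came from few barcodes. Krt15, a keratin of basal and limbal cells, had 3955 CPM in wing cells, 300.4 CPM in basal cells and 3954 CPM in superficial cells, and 4 of the 111 barcodes held 50% of its wing UMIs. Krt4, Krt13 and Krt19, keratins of the conjunctiva and other mucosae, had 114, 401 and 61.3 CPM in wing cells. Krt4, Krt13 and Krt19 had 5.12, 49.1 and 2.15 CPM in basal cells and 45.1, 4040 and 112 CPM in superficial cells. For Krt4 2 barcodes held 50% of the wing UMIs, for Krt13 4 and for Krt19 1. Ifitm1, an interferon-induced membrane protein gene, had 415 CPM in wing cells, 38.6 CPM in basal cells and 3082 CPM in superficial cells, with 50% of the wing UMIs in 2 barcodes.

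Krt15 was uneven among wing barcodes, most of which had little of it. Krt15 reached 10 or more UMIs per 10000 in 28 of 111 wing barcodes (25.2%, 17.5 to 34.4), against 5.02% of basal and 43.5% of superficial barcodes. The highest wing barcode had 485 per 10000 and the median 0.845. Krt12 was under 200 per 10000 in 8 wing barcodes, of which 7 were among the 28. In these 8 barcodes Krt15 had 32096 CPM, Krt12 6178 CPM, Ifitm1 5068 CPM, Krt13 2082 CPM, Krt4 1260.3 CPM and Krt19 904 CPM. In the other 103 wing barcodes Krt15 had 2004 CPM, Krt12 46554 CPM, Ifitm1 92.1 CPM, Krt13 285 CPM, Krt4 34.2 CPM and Krt19 2.85 CPM.

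**Figure D4:**
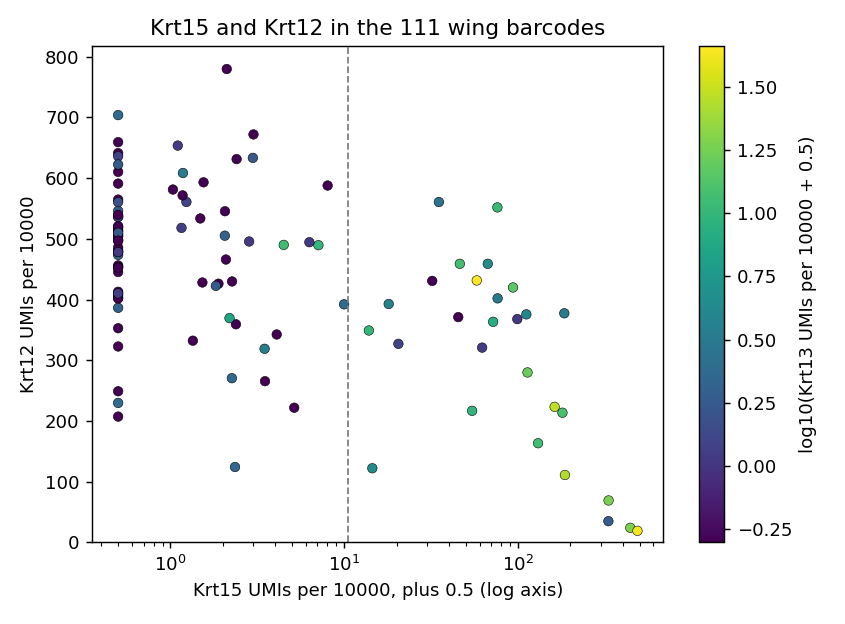
Krt12 (y axis) against Krt15 plus 0.5 on a log axis (x axis), both in UMIs per 10000, for each of the 111 wing barcodes, coloured by log10 of Krt13 per 10000 plus 0.5; the broken line is 10 Krt15 UMIs per 10000. The 28 barcodes right of the line include the 4 with the highest Krt15, which have Krt12 between 18.8 and 68.9 per 10000.

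Without the 28 Krt15-rich barcodes several ratios over basal cells turned round. In the 83 barcodes left, Krt4 had 2.49 CPM, Krt19 1.25 CPM, Krt17 0 CPM and Ifitm1 31.1 CPM, and their log2 ratios over basal cells were −0.43, −0.19, −1.48 and −0.27. Krt15 itself, on which the barcodes were split, had 84.7 CPM and a log2 ratio of −1.77. Krt13 had 88.4 CPM, still above the 49.1 CPM of basal cells, and Krt6a had 2446 CPM. Akr1b7, an aldo-keto reductase, had 77.2 CPM in the 83 barcodes, 17.1 CPM in basal cells and 153 CPM in all wing cells. The 5 conjunctival markers detected of 7 summed to 595 CPM in wing cells, 58.5 CPM in basal cells and 4226 CPM in superficial cells, from 0 to 85.5 per 10000 in single wing barcodes. The goblet cell mucins Muc5ac and Muc5b were at 0. The share of conjunctival cells in these values was not tested.

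Hemidesmosome and basement membrane genes had a negative median against basal cells. Of 18 measured, 10 were at least 2-fold lower and 0 higher, with a median log2 ratio of −1.28, beside 5.5% of all genes lower. Only 12 genes of the list were measured against superficial cells, so some of the 18 lay below the CPM limit in wing cells. Such genes entered through basal cells alone and could not be counted as higher. Itgb1, the beta-1 integrin that pairs with many alpha chains, had 45.3 CPM (33.7 to 59.6) in wing cells, 247 CPM in basal cells and 8.79 CPM in superficial cells, 5.46-fold lower (4.15 to 7.34) than basal. Lama3, a laminin alpha chain gene of the epithelial basement membrane, had 115.5 CPM in wing cells, 449.7 CPM in basal cells and 39.1 CPM in superficial cells. The integrin alpha chain gene Itga3, which forms a laminin receptor with Itgb1, had 8.88 CPM in wing cells and 112 CPM in basal cells. Dst and Plec, which link integrins to keratin filaments, had 317 and 189 CPM in wing cells and 598 and 343 CPM in basal cells.

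Itga6, Itgb4 and Col17a1, core hemidesmosome genes, belong to the rule and give no evidence. Itga6, Itgb4 and Col17a1 had 71.9, 3.55 and 387 CPM in wing cells and 889, 217 and 1723 CPM in basal cells. The basal class was itself chosen on such genes. Of the 10 lowest genes over basal cells, 4 are given here. Bcam, a laminin receptor, had 7.11 CPM in wing cells and 107 CPM in basal cells. Phldb2, which anchors microtubules near integrins, had 6.22 CPM in wing cells and 102 CPM in basal cells. Antxr1, a collagen-binding receptor, had 22.2 CPM in wing cells and 360.1 CPM in basal cells, 16.2-fold lower (10.98 to 25.1). Nrg1, the neuregulin ligand of ErbB receptors, had the lowest log2 ratio, with 22.2 CPM in wing cells, 450.3 CPM in basal cells and 3.63 CPM in superficial cells, 20.3-fold lower (13.7 to 31.3) than basal.

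Desmosome genes had a positive median against basal cells. Of 13 measured, 5 were at least 2-fold higher and 0 lower, with a median of 0.93, beside 4.45% of all genes higher. Against superficial cells 1 was higher and 0 lower, beside 20.2% of all genes higher. The median over superficial cells was 0.34, below the 0.49 of all genes. With the rule applied after thinning, 1 of 13 was 2-fold higher than basal and 0 lower, with a median of 0.79. The share of all genes higher than basal was then 2.60%. Dsg1a, a desmoglein, had 533 CPM (491 to 577) in wing cells, 174 CPM in basal cells and 298 CPM in superficial cells, 3.06-fold (2.82 to 3.33) above basal. Dsc2, a desmocollin, had 882 CPM in wing cells, 314 CPM in basal cells and 673 CPM in superficial cells. Dsp, the desmoplakin that joins desmosomes to keratins, had 2993 CPM (2893 to 3096) in wing cells, 1843 CPM in basal cells and 1782 CPM in superficial cells. Ppl and Evpl, the periplakin and envoplakin of the cornified envelope, had 850.0 and 464 CPM in wing cells, 316 and 177 CPM in basal cells, and 1419 and 688 CPM in superficial cells. Dsg1a, Dsc2 and Dsp had their highest CPM in wing cells, and Ppl and Evpl in superficial cells. With superficial barcodes weighted to wing depths, Dsc2 had 989 CPM in superficial cells and so stood above the wing level.

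Of 4 measured gap junction genes 0 were at least 2-fold higher and 1 was lower than in basal cells, with a median of −0.12. The share of all genes lower was 5.5%. The lower gap junction gene was Gja1, the connexin 43 gene, which had 100.4 CPM in wing cells, 351 CPM in basal cells and 8.35 CPM in superficial cells. Among tight and adherens junction genes 5 of 19 were at least 2-fold higher than in basal cells and 1 was lower. The median was 0.33, and after thinning 3 of 19 were higher and 0 lower. The shares of all genes higher were 4.45% at full depth and 2.60% after thinning. Cldn3, a claudin, had 99.5 CPM in wing cells, 16.9 CPM in basal cells and 353 CPM in superficial cells. Cldn7 had 1052 CPM in wing cells, 544 CPM in basal cells and 1990.4 CPM in superficial cells. Nectin4, an adherens junction receptor, had 286 CPM in wing cells, 86.9 CPM in basal cells and 329 CPM in superficial cells. Against superficial cells 4 of 18 tight and adherens junction genes were lower and 1 higher, beside 6.22% of all genes lower and 20.2% higher. Cldn23 had 13.3 CPM in wing cells and 159 CPM in superficial cells.

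Genes of DNA replication and the G1 cyclins were lower than in basal cells, in which the rule allowed the same number of cell division genes. Of 12 measured genes 7 were at least 2-fold lower and 0 higher, with a median of −1.12, beside 5.5% of all genes lower. Only 6 genes of the list were measured against superficial cells, so some of the 12 lay below the CPM limit in wing cells. Such genes entered through basal cells alone and could not be counted as higher. Ccnd1, cyclin D1, had 314 CPM (282 to 348) in wing cells, 946 CPM in basal cells and 83.7 CPM in superficial cells, 3.02-fold lower (2.72 to 3.36) than basal. Ccnd2 had 33.8 CPM in wing cells, 287 CPM in basal cells and 18.8 CPM in superficial cells. The replication gene Mcm3 had 5.33 CPM in wing cells and 26.4 CPM in basal cells. The growth arrest list had 1 of 10 genes higher and 0 lower than in basal cells, beside 4.45% of all genes higher. The higher gene was Cdkn2b, an inhibitor of cyclin D kinases, with 45.3 CPM in wing cells, 12.7 CPM in basal cells and 86.0 CPM in superficial cells.

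In the Notch pathway, 1 of 12 measured genes was at least 2-fold higher than in basal cells and 2 were lower. The median was 0.11, and the shares of all genes were 4.45% higher and 5.5% lower. With the rule applied after thinning, 0 were higher and 3 lower, with a median of −0.17, beside 3.77% of all genes lower. The ligands Jag2 and Dll1 had 5.33 and 6.22 CPM in wing cells and 73.5 and 54.5 CPM in basal cells, 13.8-fold (6.33 to 37.6) and 8.77-fold (4.25 to 21.8) lower. Both lay below the CPM limit in wing cells, so they entered through basal cells alone and could not be counted as higher. The receptor Notch3 had 179 CPM (156 to 206) in wing cells, 111 CPM in basal cells and 47.8 CPM in superficial cells. The receptor Notch1 had 94.2 CPM in wing cells, 86.7 CPM in basal cells and 21.8 CPM in superficial cells. Nrarp, a Notch target that dampens the pathway and the gene counted as higher, had 74.6 CPM (59.5 to 92.4) in wing cells, 28.7 CPM in basal cells and 25.2 CPM in superficial cells. The target Hes1 had 231 CPM in wing cells, 209 CPM in basal cells and 181.5 CPM in superficial cells. Against superficial cells 5 of 10 were higher and 0 lower, with a median of 1.11, beside 20.2% of all genes higher. After thinning 4 of 10 were higher than superficial and 0 lower, with a median of 0.72, beside 9.68% of all genes higher.

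In the Wnt pathway, 1 of 12 measured genes was at least 2-fold higher than in basal cells and 4 were lower. The median was −0.43, and the shares of all genes were 4.45% higher and 5.5% lower. With the rule applied after thinning, 0 of 11 were higher and 3 lower, beside 3.77% of all genes lower. The ligands Wnt10a and Wnt3a had 4.44 and 1.78 CPM in wing cells and 62.5 and 31.9 CPM in basal cells. Below the CPM limit in wing cells, these ligands entered through basal cells alone and could not be counted as higher. Wnt11, a ligand of non-canonical signalling, had 24.0 CPM (15.8 to 34.9) in wing cells, 4.79 CPM in basal cells and 3.95 CPM in superficial cells, with a UMI in 24 of 111 wing barcodes. The extracellular proteins Sfrp1, a Wnt antagonist, and Dkk3, of the dickkopf family, had 143 and 74.6 CPM in wing cells, 309.7 and 224 CPM in basal cells, and 18.1 and 5.38 CPM in superficial cells. Against superficial cells 7 of 10 were higher and 0 lower, with a median of 1.41, beside 20.2% of all genes higher. After thinning 3 of 9 were higher than superficial and 0 lower, with a median of 0.93, beside 9.68% of all genes higher. Among EGF receptor genes, the ligand Btc had 30.2 CPM in wing cells, 5.71 CPM in basal cells and 66.4 CPM in superficial cells. The feedback phosphatase gene Dusp6 had 6.22 CPM in wing cells and 40.9 CPM in basal cells. In that list 2 of 11 genes were higher and 1 lower than basal, beside 4.45% of all genes higher and 5.5% lower.

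Crystallins and detoxifying enzymes did not move as a group. Of 19 measured genes 4 were at least 2-fold higher than basal and 1 lower, beside 4.45% of all genes higher. The median was 0.29. Gsta4, a glutathione transferase that clears lipid peroxidation products, had 8974 CPM (8799 to 9150.3) in wing cells, 3579 CPM in basal cells and 8470.4 CPM in superficial cells. Gsto1, the omega-class transferase, had 5064 CPM in wing cells, 2451 CPM in basal cells and 28325 CPM in superficial cells. Cyp4a12b, a fatty acid hydroxylase, had 642 CPM in wing cells, 145 CPM in basal cells and 853 CPM in superficial cells. The crystallin Tkt, a transketolase, had 3866 CPM in wing cells, 7537 CPM in basal cells and 1004 CPM in superficial cells. Adh7, a retinol and alcohol dehydrogenase, had 1416 CPM in wing cells, 1547 CPM in basal cells and 301 CPM in superficial cells. Tkt and Aldh3a1 in wing cells thus stood between their basal and superficial levels, and Gsta4 was near its superficial level in wing cells.

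Antioxidant genes had 0 of 20 members higher and 3 lower than basal, with a median of −0.38, beside 5.5% of all genes lower. After thinning 0 of 19 were higher and 1 lower, beside 3.77% of all genes lower. The metallothioneins Mt1 and Mt2, which bind zinc and copper, had 481 and 433 CPM in wing cells, 1462 and 1241 CPM in basal cells, and 159 and 117 CPM in superficial cells. Channels and transporters had 1 of 13 members higher and 6 lower than basal, with a median of −0.89, beside 5.5% of all genes lower. Slc6a6, the taurine transporter, had 139 CPM (118 to 163) in wing cells, 1055 CPM in basal cells and 19.2 CPM in superficial cells, 7.57-fold lower (6.47 to 8.91) than basal. Slc2a1, the glucose transporter GLUT1, had 32.0 CPM in wing cells and 131 CPM in basal cells. Clic3, an intracellular chloride channel protein gene, had 234 CPM in wing cells, 77.6 CPM in basal cells and 605 CPM in superficial cells.

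Lipid and sterol genes were higher than basal in 7 of 23 and lower in 1, beside 4.45% of all genes higher. The median was 0.65. With the rule applied after thinning, 2 of 22 were higher and 2 lower, with a median of 0.40. The shares of all genes were then 2.60% higher and 3.77% lower. Fdps, farnesyl diphosphate synthase, had 669 CPM (622 to 718) in wing cells, 242 CPM in basal cells and 1170.2 CPM in superficial cells. Sqle, squalene epoxidase, had 247 CPM in wing cells, 96.2 CPM in basal cells and 338 CPM in superficial cells. Cpt1a, which brings fatty acids into mitochondria, had 86.2 CPM in wing cells, 52.9 CPM in basal cells and 7.58 CPM in superficial cells. Fabp5, the epidermal fatty acid binding protein gene of the retinoid list, had 1222 CPM (1158 to 1288) in wing cells, 329 CPM in basal cells and 649 CPM in superficial cells. In the retinoid list 2 of 6 genes were higher and 1 lower than basal, beside 4.45% of all genes higher and 5.5% lower. Cpt1a and Fabp5 were highest in wing cells, and Fdps and Sqle in superficial cells.

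Lists of the surface programme had medians above basal and below superficial cells, with single genes on either side. In the cornified envelope list 3 of 7 genes were higher and 1 lower than basal, beside 4.45% of all genes higher. The median was 0.75. Against superficial cells 0 of 9 were higher and 5 lower, with a median of −1.73, beside 6.22% of all genes lower. Only 7 were measured against basal cells, so some of the 9 lay below the CPM limit in wing cells. Such genes entered through superficial cells alone and could not be counted as higher. The superficial class was itself chosen on surface genes. Calml3, an epithelial calmodulin-like protein gene, had 6979 CPM in wing cells, 2500.5 CPM in basal cells and 8033 CPM in superficial cells. Csta1, a cystatin of the envelope, had 131 CPM in wing cells, 35.0 CPM in basal cells and 607 CPM in superficial cells. Cnfn, cornifelin, had no UMI in wing cells, below the 2.66 CPM that 3 counts over the class would give, and 49.3 CPM in superficial cells. Muc15, a membrane mucin, had 276 CPM (246 to 309) in wing cells, 53.3 CPM in basal cells and 163 CPM in superficial cells, and was highest in wing cells. Muc20, another membrane mucin, had 15.1 CPM in wing cells, 1.57 CPM in basal cells and 239 CPM in superficial cells. In the list of surface mucins and apical proteins 2 of 9 were higher and 0 lower than basal, beside 4.45% of all genes higher. Against superficial cells 1 of 12 was higher and 6 lower, beside 6.22% of all genes lower. As only 9 were measured against basal cells, some of these 12 also entered through superficial cells alone.

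The small secreted or membrane-anchored Ly6 proteins are abundant in cornea. Lypd2 had 5740 CPM (5601 to 5881) in wing cells, 4123 CPM in basal cells and 14195 CPM in superficial cells. Slurp1, a secreted protein that limits inflammation of the cornea, had 4175 CPM in wing cells, 3979 CPM in basal cells and 7780.3 CPM in superficial cells. Ly6g6e had 52.4 CPM in wing cells, 7.76 CPM in basal cells and 88.2 CPM in superficial cells. In this list 2 of 8 were higher and 2 lower than basal, and after thinning 1 was higher and 1 lower. The shares of all genes were 4.45% higher and 5.5% lower at full depth, and 2.60% and 3.77% after thinning. Serpinb11 and Ceacam1, an ovalbumin-type serpin and an adhesion receptor gene, were among the 10 highest over basal cells. Serpinb11 had 102 CPM in wing cells, 12.9 CPM in basal cells and 617 CPM in superficial cells, and Ceacam1 had 83.5 CPM in wing cells, 8.68 CPM in basal cells and 233 CPM in superficial cells. Protease inhibitors had 4 of 12 members higher and 4 lower than basal, beside 4.45% of all genes higher and 5.5% lower.

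Of 24 corneal transcription factor genes 4 were at least 2-fold higher and 3 lower than basal, with a median of 0.27. After thinning 5 were higher and 1 lower. The shares of all genes were 4.45% higher and 5.5% lower at full depth, and 2.60% and 3.77% after thinning. The 4 higher list genes at full depth were Grhl1, Grhl3, Elf3 and Zfp750, all regulators of epithelial differentiation. Grhl1 had 124 CPM (105 to 147) in wing cells, 40.0 CPM in basal cells and 123 CPM in superficial cells, and Elf3 had 512 CPM in wing cells, 239 CPM in basal cells and 1611 CPM in superficial cells. The lower ones were Cebpb, Id3 and Nfib, with 92.4, 87.0 and 41.7 CPM in wing cells and 316, 225 and 99.6 CPM in basal cells. Pax6, the master regulator of the eye, had 504 CPM in wing cells, 408 CPM in basal cells and 197 CPM in superficial cells. Klf4 had 1104 CPM in wing cells, 899 CPM in basal cells and 1141 CPM in superficial cells. Prdm1, a factor of terminal differentiation, had 5.33 CPM in wing cells, 6.98 CPM in basal cells and 118 CPM in superficial cells.

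Against superficial cells, the list of translation genes had a median above that of all genes (0.49) and the interferon list one below it. Translation factors and nucleolar genes were at least 2-fold higher in 10 of 18 and lower in 0, with a median of 1.04. After thinning 8 of 18 were higher than superficial and 0 lower, with a median of 0.97. These counts stand beside 20.2% of all genes higher at full depth and 9.68% after thinning. Against basal cells 0 were higher and 1 lower, with a median of −0.50. Eef1a1, the main elongation factor gene, had 4496 CPM in wing cells, 6432 CPM in basal cells and 1842 CPM in superficial cells. Of 8 clock genes 4 were higher than superficial and 0 lower, with a median of 1.05, beside 20.2% of all genes higher. After thinning 1 of 8 was higher and 0 lower, with a median of 0.77, beside 9.68% of all genes higher. Hlf, a clock output factor, had 439 CPM in wing cells, 752 CPM in basal cells and 112 CPM in superficial cells. Interferon and antigen presentation genes were lower than superficial in 9 of 19 and higher in 1, with a median of −0.94, beside 6.22% of all genes lower. Only 16 genes of this list were measured against basal cells, so some of the 19 entered through superficial cells alone. After thinning 6 of 19 were lower than superficial and 1 higher, with a median of −0.59, beside 5.01% of all genes lower. Isg15 had 42.6 CPM in wing cells, 22.3 CPM in basal cells and 216 CPM in superficial cells. Psmb8, an immunoproteasome subunit gene, had 44.4 CPM in wing cells, 17.2 CPM in basal cells and 265 CPM in superficial cells. Nuclear genes of the respiratory chain had 0 of 20 past 2-fold against basal cells, with a median of 0.01.

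At the ends of the superficial comparison, the lowest gene was Ifit1bl1, of an interferon-induced family, with 2.66 CPM (3 UMIs) in wing cells and 1091 CPM in superficial cells. The serine protease gene Prss22 had 6.22 CPM in wing cells and 373 CPM in superficial cells. Spns2, a transporter of sphingosine 1-phosphate, had no UMI in wing cells and 117 CPM in superficial cells. Higher genes included the fibronectin gene Fn1, with 156 CPM in wing cells, 127 CPM in basal cells and 14.8 CPM in superficial cells. The planar polarity gene Prickle2 had 145 CPM in wing cells, 123 CPM in basal cells and 16.5 CPM in superficial cells. The adhesion molecule gene Lsamp had 274 CPM in wing cells, 977 CPM in basal cells and 27.0 CPM in superficial cells.

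Some genes were highest in wing cells. Among 44 genes at least 2-fold above both neighbours, Ooep, known from the oocyte, had 136 CPM (115 to 159) in wing cells, 24.7 CPM in basal cells and 26.4 CPM in superficial cells. Thinned to 5000 UMIs, 35.1% of wing barcodes had an Ooep UMI, against 8.5% of basal, 11.7% of superficial and 0.820% of stromal barcodes (47.7%, 18.4%, 29.3% and 1.91% without thinning). The receptor tyrosine kinase gene Alk had 114 CPM (94.8 to 135) in wing cells, 38.3 CPM in basal cells and 26.0 CPM in superficial cells. The transcription factor gene Stox2 had 67.5 CPM in wing cells, 11.2 CPM in basal cells and 12.9 CPM in superficial cells, with 50% of its UMIs in 4 barcodes. The wing level of Gm12766 was 25.8 CPM, against 4.09 CPM in basal cells and 4.17 CPM in superficial cells. In the 760 barcodes that met the rule after thinning, Ooep had 96.8 CPM in wing, 27.3 CPM in basal and 41.8 CPM in superficial barcodes.

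Other genes with a wing peak rested on few barcodes. Serpinb3a, a serpin, had 38.2 CPM in wing cells, 2.12 CPM in basal cells and 0.659 CPM in superficial cells, and 1 barcode held 50% of its wing UMIs. Kcnq5, a potassium channel gene, had 24.0 CPM in wing cells, found in 3 barcodes, 2.38 CPM in basal cells and 0.549 CPM in superficial cells. Krt17 had 34.6 CPM in wing cells, found in 2 barcodes, 8.96 CPM in basal cells and 3.74 CPM in superficial cells. Lgi2 had 56.0 CPM in wing cells, 9.99 CPM in basal cells and 0.769 CPM in superficial cells. Without the 28 Krt15-rich barcodes, log2 ratios over basal cells were −0.56 for Kcnq5 and −0.59 for Lgi2, and over superficial cells −0.15 for Kcnq5 and −0.80 for Krt17. Serpinb3a then had 2.49 CPM.

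The 5 lowest genes against both neighbours were Igfbp2, Nid1, Ecm1, Dcn and Col1a2. Dcn and Col1a2, collagen matrix genes of keratocytes, had 15.99 and 4.44 CPM in wing cells, 62.0 and 21.4 CPM in basal cells, and 96.9 and 24.4 CPM in superficial cells. Both belong to a list of 6 stromal markers that summed to 31.1 CPM in wing cells, 126 CPM in basal cells, 179 CPM in superficial cells and 81652 CPM in stromal barcodes, with Col5a1 at 0 in wing cells. The part of stromal RNA in these ratios was not tested. Igfbp2, a binding protein of insulin-like growth factors, had 7.11 CPM in wing cells, 85.6 CPM in basal cells and 43.9 CPM in superficial cells, and a UMI in 99.7% of thinned stromal barcodes.

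Within the 111 wing barcodes depth moved with immediate early genes, which respond within minutes to stimulation and to tissue digestion. In the 43 barcodes with 10000 UMIs or more, 12 of 19 measured genes were at least 2-fold higher than in the 68 shallower ones and 0 lower, with a median of 1.22, beside 154 higher and 561 lower of 6366 genes and a median of −0.18. Fos had 1433 CPM in the deeper and 434 CPM in the shallower barcodes, and Atf3 had 1117 CPM in the deeper and 331 CPM in the shallower ones. The median mitochondrial share was 1.24% in the deeper and 3.25% in the shallower barcodes. Aldh3a1 had 8402 CPM in the deeper and 7113 CPM in the shallower barcodes, and Gsta2 had 604 CPM in the deeper and 346 CPM in the shallower ones.

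Against basal cells the same list had 0 of 20 genes higher and 4 lower in wing cells, beside 5.5% of all genes lower. The median of the list was −0.58. Fos had 1021 CPM in wing cells, 2150.2 CPM in basal cells and 1550.1 CPM in superficial cells. The heat shock gene Hspa8 had 215 CPM in wing cells, 508 CPM in basal cells and 45.0 CPM in superficial cells. When the rule was applied after thinning, the median of the list over basal cells was −0.02. The part of depth in the lower level was not tested.

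**Figure D5:**
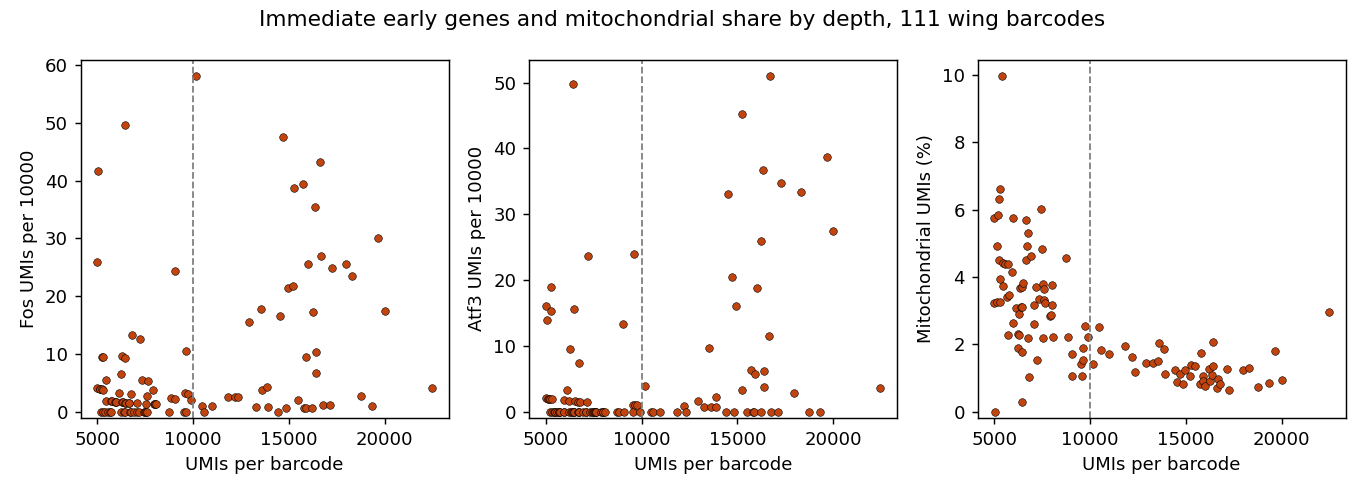
Fos and Atf3 in UMIs per 10000 and the mitochondrial share in percent (y axes) against UMIs per barcode (x axes) for the 111 wing barcodes, with a broken line at 10000 UMIs. Fos had 1433 CPM over the 43 barcodes right of the line and 434 CPM over the 68 left of it, and the median mitochondrial share was 1.24% right and 3.25% left of it.

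Wing barcodes were also split by the rule's own count of surface genes, as a description. In the 82 barcodes with 2 or 3 surface genes, 7 of 10 keratins were at least 2-fold higher than in the 29 with 0 or 1 and 0 lower, beside 264 higher and 458 lower of 6672 genes. That count includes genes whose UMIs lay in few Krt15-rich barcodes, and Krt4, Krt17 and Krt19 were at 0 in the 29. Krt6a had 3021 CPM in the barcodes with more surface genes and 1614 CPM in those with fewer. Krt12 had 43940.2 CPM in the barcodes with more and 43921 CPM in those with fewer, and Gsta2 had 507 CPM in those with more and 459.9 CPM in those with fewer. Col17a1, a gene of the rule, had 316.5 CPM in the barcodes with more and 656 CPM in those with fewer.

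Most marker lists of cell types outside the epithelium summed to little in wing cells. The 7 basal markers summed to 13973 CPM in wing cells, 10389 CPM in basal cells and 11117 CPM in superficial cells. That sum, highest in wing cells, includes Krt5 and Krt15 beside the 5 basal genes of the rule. Krt5, also in the rule, had a median of 93.4 UMIs per 10000 in wing, 52.0 in basal and 73.3 in superficial barcodes. The 6 immune markers summed to 2.66 CPM, with Ptprc, S100a8 and Lyz2 at 0. The 4 limbal markers summed to 58.6 CPM in wing cells, 86.5 CPM in basal cells and 23.5 CPM in superficial cells. The 4 mural markers summed to 179 CPM, all from Notch3, with Rgs5, Acta2 and Kcnj8 at 0. Schwann cell, melanocyte, vascular endothelial and lens lists summed to 0.888, 2.66, 3.55 and 10.7 CPM. The 4 corneal endothelial markers summed to 559 CPM in wing cells, 715 CPM in basal cells and 133 CPM in superficial cells, with Col8a2 and Slc4a4 at 0. The 4 wing markers summed to 54802 CPM in wing and 4217 CPM in stromal barcodes. The part of background RNA in the stromal sum was not tested. A doublet score took out 2 of 111 wing barcodes (1.80%), 11.3% of basal and 1.27% of superficial barcodes.

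The same rule applied to the injured libraries found few barcodes. It took 11 of 786 epithelial barcodes in the losartan library (1.40%, 0.701 to 2.49) and 8 of 120 in the saline library (6.67%, 2.92 to 12.7), against 1.31% in the uninjured library. Fewer than 50 barcodes are too few to compare, so only the levels are given. The basal gene that they carried was Krt14 in 10 of 11 losartan barcodes and 8 of 8 saline barcodes, against 4 of 111 uninjured barcodes. Krt14 had 16842 CPM in the losartan, 19364 CPM in the saline and 53.3 CPM in the uninjured barcodes. Krt12 had 14605 CPM in the losartan, 5206 CPM in the saline and 43936 CPM in the uninjured barcodes. Dapl1 had 49.7 CPM (6 UMIs) in the losartan barcodes, no UMI in the saline barcodes (3 counts would be 46.6 CPM) and 2499 CPM in the uninjured barcodes. Gsta2 had 2 UMIs in the losartan and 1 UMI in the saline barcodes, and Lypd2 had none in both. Krt6a had 13354 CPM in the losartan, 15929 CPM in the saline and 2728 CPM in the uninjured barcodes. Sprr1b, a cornified envelope gene, had 953 CPM in the losartan and 2440 CPM in the saline barcodes, and no UMI in the uninjured barcodes. Treatment, mouse and library cannot be told apart here.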

How the data were processed

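The deposited matrices hold UMI counts per gene and cell barcode, as Cell Ranger (8.0.0, per the file headers) wrote them, on build GRCm38 per the submitters' processing notes. Neither the annotation release nor whether intronic reads or doublets were handled beforehand is stated in the labels. Each matrix held 32285 features and barcodes from 500 UMIs up. The counts were used as deposited. Classes were cut by the rule in the text. Counts of all genes were summed per class and given as CPM with exact Poisson intervals. The 12 basal and surface genes and the other genes of the rule were left out of gene counts, rankings by ratio and list medians. Ratios carry exact conditional binomial intervals, shares exact Clopper-Pearson intervals, all at 95%. Log2 ratios used CPM + 5 over genes at 20 CPM or more in either class. A gene was counted as higher or lower from 2-fold. PCR duplicates were collapsed only as UMIs, so intervals cover counting error only.

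The 366 stromal barcodes used for background had at least 3 stromal marker genes at 2 or more UMIs. Doublets were scored against 2 simulated doublets per barcode (2000 genes, 30 components, 60 neighbours) and removed, the highest scores first, only as an alternative. The ratio step was tested on simulated data with known folds. The alternatives were other depth and mitochondrial limits, thinning before the rule, doublet removal, stricter gene limits, equal weight per barcode, median-of-ratios scaling, CPM + 1 and no filter on low genes. Genes named were those of the rule, the 10 highest and 10 lowest against each neighbour, 10 peaked and 5 low in wing cells, the 15 with most UMIs and up to 6 per list with the largest ratios. A few further list members (Cldn7, Hes1, Klf4, Krt10, Krt16, Plec, Sprr1b, Zfp750) are given for context and were chosen after their values were seen. The members, the 30 gene lists and the marker lists were chosen with earlier results of these data known. Computation used Python 3.11.15, numpy 2.4.6, scipy 1.17.1, pandas 2.3.3, scikit-learn 1.9.0 and matplotlib 3.10.9.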

Additional observations from a re-analysis of the deposited data

How the results depend on the processing

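The share of wing cells depended on depth and on the gene limits. It was 1.31% as reported, 0.630% from 10000 UMIs up, 3.94% from 2000 UMIs up, 9.0% with the rule applied after thinning, and 0.0118% with no basal gene and at most 1 surface gene. That last setting left 1 barcode, so no ratio was computed. After thinning 160 genes were higher and 232 lower than in basal cells and 560 higher than in superficial cells. Median-of-ratios scaling gave 462 higher and 649 lower than superficial, and neighbours weighted to wing depth gave 505 higher. Against basal cells that weighting gave 236 higher and 442 lower of 6565 genes. With all genes with a UMI, 541 of 21163 were lower than basal (2.56%, beside 5.5% as reported). The depth weighting, a basal class from 4 basal genes up and the set under 10 Krt15 UMIs per 10000 were chosen after seeing the data. In that set log2 ratios turned over basal cells for Krt15 (−1.77), Krt17 (−1.48), Lgi2 (−0.59), Kcnq5 (−0.56), Krt4 (−0.43), Ifitm1 (−0.27) and Krt19 (−0.19), and over superficial cells for Krt17 (−0.80) and Kcnq5 (−0.15). Of 684 values of named genes under alternatives 530 stayed within the spread used, 145 moved and 9 changed sign, and of 672 list medians 100 moved. The cause of these moves was not tested. Comparisons with the injured libraries were not run, because fewer than 50 barcodes met the rule there. No paired analysis was possible because each group has 1 library and no replicate numbers.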
